A study of Homo sapiens with 6 samples.

Results

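The genes described here are 9 targets of the transcription factor p53 that respond to DNA damage: CDKN1A, MDM2, GDF15, FAS, TP53I3, SESN1, BTG2, GADD45A and RRM2B. They were taken as a fixed list of symbols. Each was represented by the transcript cluster, a set of probes summarised as 1 value, that carried only its symbol and had the highest mean over the arrays. Of the 9 genes, 8 had such a cluster, 1 each, among 22465 measured genes, and BTG2 was not analysed here. The study measured gene expression in AC16, a human cell line labelled as myocardial, on 6 Affymetrix arrays. On 3 arrays the RNA came from AC16 cells kept for 24 h with fine particulate matter (PM2.5, airborne particles of small diameter) at 50 µg/mL, and on the other 3 from control AC16 cells with no treatment named. No genetic change is given for either group. Each title names its sample a biological replicate without saying whether the cultures were separate, and the spread behind each p-value may be partly technical.

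p53 is held at a low level in resting cells by MDM2, a ubiquitin ligase that marks it for degradation. Damage to DNA activates kinases that free p53 from MDM2, and p53 then binds paired 10-base repeats near its targets and raises their transcription. The targets stop the cell cycle, sensitise the cell to death ligands, supply nucleotides for repair, limit growth signalling, and include MDM2, which closes a feedback loop. AC16 was made by fusing adult ventricular cells with fibroblasts transformed by SV40, a virus whose large T antigen binds p53. The presence of that protein in these samples was not tested.

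The paired p53 repeat was looked up in promoters of the genes whose RNA is reported below, as a description of their sequence; a match does not show binding. RefSeq promoter windows on GRCh38.p14, from 250 bases before to 50 bases after a start site, covered 7 of the 9 genes. The search took pairs of 10-base p53 repeats up to 13 bases apart that kept the CNNG core of both repeats and had up to 2 mismatches in all. The element reads the same on both strands. Of all 35116 windows 2.93% held one, and of 27305 genes 3.62% did. Among the genes described here MDM2 and FAS had a match, 2 of 7. Capitals below mark the matched repeats, and the MDM2 line shows the 250 bases before a start site because MDM2 is the gene whose groups separated.

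MDM2, chr12:68808767-68809016, plus strand: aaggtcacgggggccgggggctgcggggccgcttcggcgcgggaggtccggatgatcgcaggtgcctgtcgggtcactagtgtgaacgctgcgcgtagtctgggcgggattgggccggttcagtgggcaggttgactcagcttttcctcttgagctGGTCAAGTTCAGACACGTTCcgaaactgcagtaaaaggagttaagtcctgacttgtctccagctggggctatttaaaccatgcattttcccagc
FAS, chr10:88991304-88991333, plus strand: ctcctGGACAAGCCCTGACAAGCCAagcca

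Both elements stand before an inner start site of their gene. In MDM2 the pair begins 94 bases before the start at 68809017, which lies 845 bases downstream of the outermost RefSeq start. This inner promoter, in the first intron of the longer transcripts, is known as the p53-responsive promoter of MDM2. In FAS the pair begins 122 bases before a start that lies 633 bases downstream of the outermost one. Both pairs have 2 mismatches to the consensus and no spacer. With both cores kept and up to 2 mismatches in each repeat, the best pair in the windows of CDKN1A and SESN1 had 4 mismatches. That of GDF15 had 3, and TP53I3 and BTG2 had no such pair. The windows end 250 bases before a start site, so the lack of a match does not show that a gene lacks a p53 element. Each measured target had 1 transcript cluster, and its value does not separate start sites.

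Expression values are log2 values credited to RMA, a method that corrects background, equalises the arrays' distributions and summarises the probes of a cluster. In the deposited values the array medians still differed, from 4.03 on control replicate 3 to 4.18 on control replicate 2. Levels of different genes are not compared, because their probes differ. The 23 background probe sets of the table give a yardstick: their median was 3.86 to 3.92 on each array, and the highest single reading was 5.66, on control replicate 1. The highest reading of each further array was between 4.68 and 5.14. By the mean of 8 spike-in control probe sets, RNAs added during labelling and hybridisation, the arrays fell into a high spike-in set (PM2.5 replicate 1 and control replicates 1 and 2) and a low spike-in set (PM2.5 replicates 2 and 3 and control replicate 3). Differences inside a set compare a lone array of one group with 2 of the other and so have no error. Of the markers of other cell types, 0 of 9 cardiomyocyte, 0 of 6 endothelial, 1 of 6 leukocyte (CD68), 2 of 7 fibroblast (COL1A1 and COL1A2) and 2 of 5 epithelial genes (KRT8 and KRT18) exceeded 5.66 on at least 3 arrays. The cardiac myosin genes MYH6 and MYH7 and the troponin gene TNNI3 also stayed below the highest background probe set of their own array on all arrays. ACTC1, cardiac actin, stood above it on 5 of 6 arrays. Most of the defining cardiomyocyte transcripts were thus near background. Between the groups 0 of the 33 measured markers passed in limma, and 0 had an unadjusted p under 0.05.

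Of the 8 measured targets, 0 passed the test for a difference between PM2.5 and control arrays. The threshold was a Benjamini-Hochberg adjusted p of 0.05 over all 22465 genes, and 0.0% of all genes passed it in limma, with 2.11% at an unadjusted p under 0.05, which 1 of the 8 targets, MDM2, also had. The median difference of the 8 targets, PM2.5 minus control, was -0.0067 on the log2 scale, and it was -0.0099 over all genes. Of the targets 3 were higher and 5 lower after PM2.5, with differences from -0.19 to 0.10. MDM2 alone had groups that did not overlap, 1 of 8 targets, where 5.31% of all genes had such groups in either direction 3.37% in the lower and 1.95% in the higher direction. Among the 4150 genes that exceeded 5.66 on at least 3 arrays, called above background here, 3.28% had separate groups. After a further quantile normalization the MDM2 groups overlapped and those of TP53I3 did not, 1 of 8 targets beside 7.24% of all genes. Without control replicate 3 the groups of MDM2, FAS and TP53I3 were separate, beside 28.4% of all genes.

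MDM2, the ligase that degrades p53 and is itself raised by p53, read 5.48, 5.51 and 5.48 on the PM2.5 arrays, against 5.78, 5.60 and 5.66 on the control arrays. Every PM2.5 array lay below every control array, with a gap of 0.0960 between the nearest arrays. The means were 5.49 ± 0.0189 after PM2.5 and 5.68 ± 0.0911 in controls (SD, 3 arrays each). The difference was -0.19 on the log2 scale (SE 0.08, 95% interval -0.38 to -0.0097), or 0.874-fold (0.769 to 0.993). MDM2 did not pass (limma adjusted p = 1, unadjusted p = 0.0420), and an exact permutation test gave a two-sided p of 0.1, the smallest that 3 against 3 arrays allow. The difference was -0.22 in the high and -0.16 in the low spike-in set. With the array set as a block it was -0.19 (SE 0.07, limma adjusted p = 0.862). MDM2 stood above the highest background probe set of its own array on all 6 arrays, but exceeded 5.66 on 2 control arrays only.

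**Figure D1:**
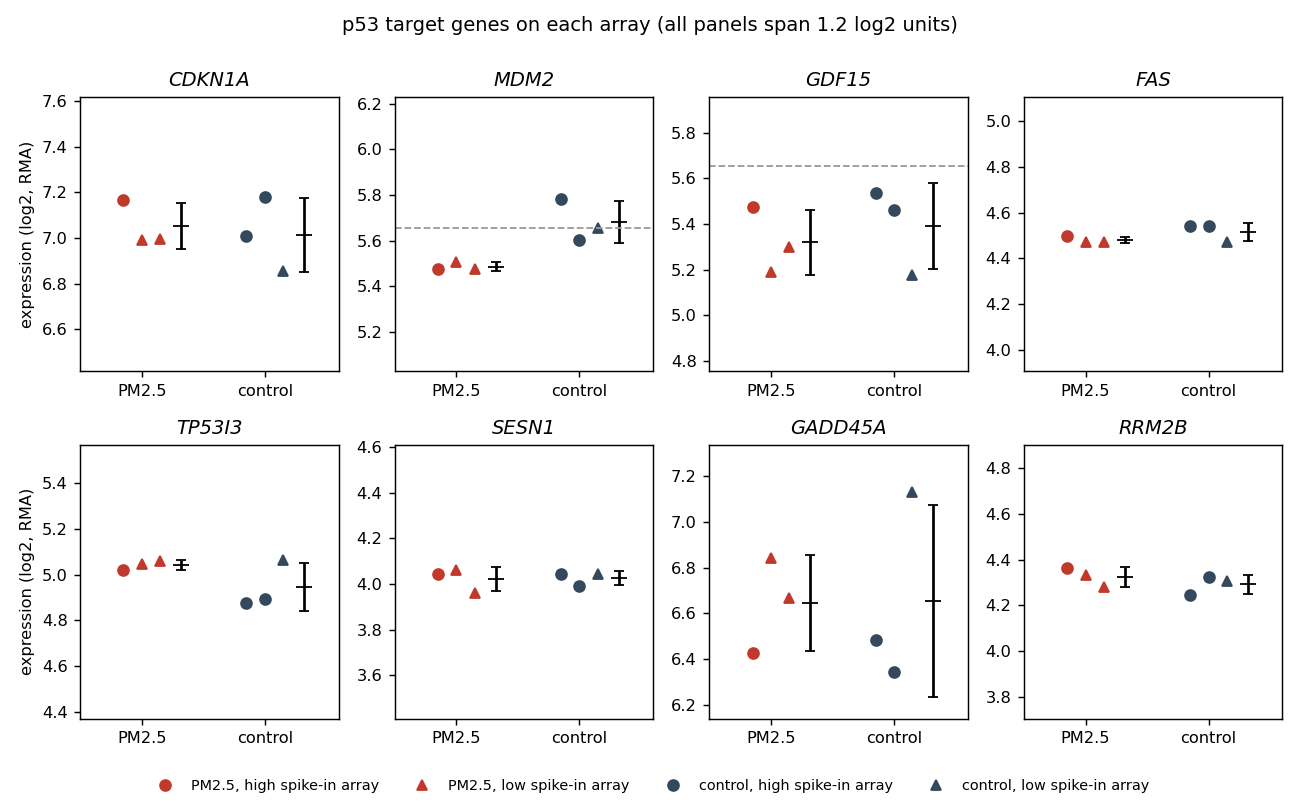
Log2 RMA expression of the 8 measured p53 targets on each array, with PM2.5 left of control; circles are high and triangles low spike-in arrays, black bars give the mean ± SD of 3 arrays, and the dashed line is the highest background reading of 5.66 where it falls in the panel. The groups are separate in the MDM2 panel only. Triangles do not overlap circles in 5 panels: GADD45A, GDF15, CDKN1A, TP53I3 and FAS.

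Of the genes that stop the cell cycle, CDKN1A and GADD45A were well above background on all 6 arrays. CDKN1A encodes p21, an inhibitor of cyclin-dependent kinases and the best known mediator of p53-dependent arrest. It read 7.17, 6.99 and 6.99 on the PM2.5 arrays, against 7.01, 7.18 and 6.86 on the control arrays. The groups overlapped over most of their range. The means were 7.05 ± 0.101 after PM2.5 and 7.01 ± 0.162 in controls, a difference of 0.04 (SE 0.14, 95% interval -0.30 to 0.38, limma adjusted p = 1). On the linear scale that interval runs from 0.810-fold to 1.30-fold, so a change of this size in either direction could not be told from none with these arrays. The difference was 0.07 in the high and 0.14 in the low spike-in set.

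GADD45A, a small protein that binds PCNA and the kinase CDK1 and takes part in arrest and repair, read 6.43, 6.84 and 6.67 on the PM2.5 arrays, against 6.48, 6.35 and 7.13 on the control arrays. Control replicate 3 was the highest array and control replicate 2 the lowest, so that the control range enclosed all PM2.5 arrays. The means were 6.65 ± 0.210 after PM2.5 and 6.65 ± 0.421 in controls, a difference of -0.0086 (SE 0.24, 95% interval -0.59 to 0.58, limma adjusted p = 1). Among the high spike-in arrays the difference was 0.011, and among the low spike-in arrays it was -0.38. The difference was 0.23 without control replicate 3 and -0.16 without control replicate 2, and it did not pass in either case.

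GDF15, a secreted member of the TGF-beta superfamily that rises under many stresses and acts on food intake through the receptor GFRAL, read 5.47, 5.19 and 5.30 on the PM2.5 arrays, against 5.54, 5.46 and 5.18 on the control arrays. The groups overlapped, with control replicate 3 the lowest array of all. The means were 5.32 ± 0.142 after PM2.5 and 5.39 ± 0.189 in controls, a difference of -0.07 (SE 0.12, 95% interval -0.37 to 0.23, limma adjusted p = 1). GDF15 never exceeded 5.66 but stood above the highest background probe set of its own array on 5 of 6 arrays. The difference was -0.02 in the high and 0.07 in the low spike-in set.

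TP53I3 encodes a quinone oxidoreductase also called PIG3, which is linked to the formation of reactive oxygen species. It read 5.02, 5.05 and 5.06 on the PM2.5 arrays, against 4.87, 4.89 and 5.07 on the control arrays. Control replicates 1 and 2 lay below all PM2.5 arrays and control replicate 3 lay above them. The means were 5.04 ± 0.0205 after PM2.5 and 4.94 ± 0.105 in controls, a difference of 0.10 (SE 0.07, 95% interval -0.07 to 0.26, limma adjusted p = 1). This was the highest difference among the 8 targets. It was 0.14 in the high and -0.010 in the low spike-in set. TP53I3 stood above the highest background probe set of its own array on 3 arrays.

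FAS, SESN1 and RRM2B never exceeded the highest background probe set of any of their own arrays, so their small differences describe probes near background and do not show that the genes were silent. FAS, the death receptor for FAS ligand, read 4.50, 4.47 and 4.47 on the PM2.5 arrays, against 4.54, 4.54 and 4.47 on the control arrays. Its difference was -0.04 (SE 0.04, 95% interval -0.13 to 0.06), -0.04 in the high and 0.0015 in the low spike-in set. SESN1, sestrin 1, which restrains growth signalling through mTORC1, read 4.04, 4.06 and 3.96 on the PM2.5 arrays, against 4.04, 3.99 and 4.04 on the control arrays. Its arrays interleaved, with a difference of -0.0048 (SE 0.04, 95% interval -0.11 to 0.10). RRM2B, the p53-inducible small subunit of ribonucleotide reductase, which makes deoxynucleotides for repair, read 4.36, 4.33 and 4.28 on the PM2.5 arrays, against 4.24, 4.32 and 4.31 on the control arrays. Its groups overlapped, with a difference of 0.03 (SE 0.04, 95% interval -0.07 to 0.13). The limma adjusted p was 1 for each of these 3 genes.

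**Figure D2:**
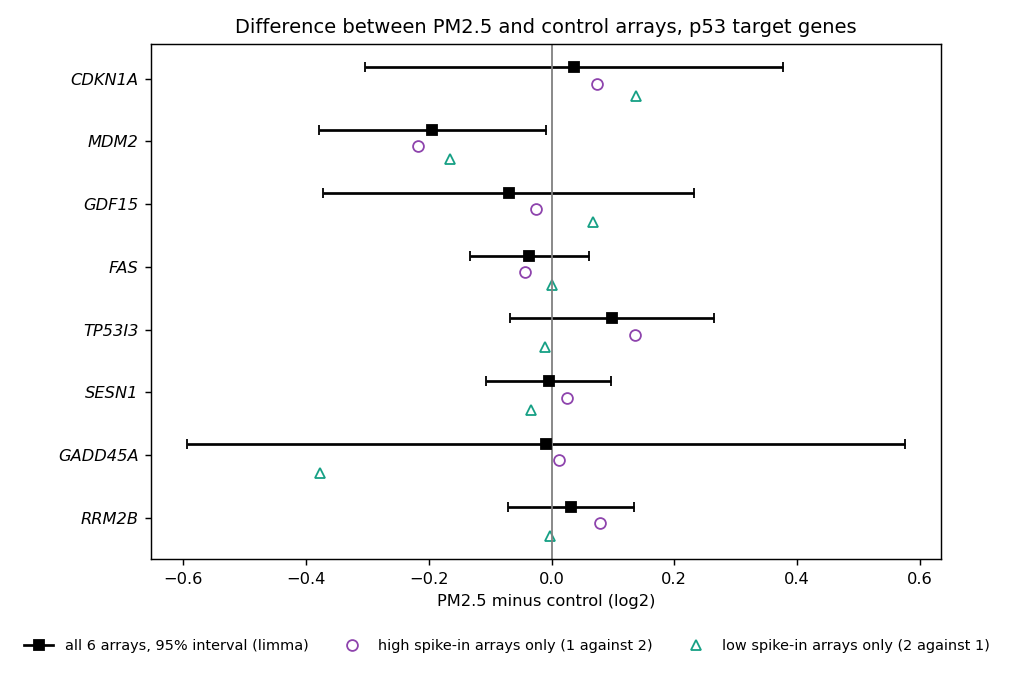
Difference between PM2.5 and control arrays of the 8 p53 targets on the log2 scale; squares with bars are the limma estimate over 6 arrays and its 95% interval, circles the difference among high and triangles that among low spike-in arrays. The MDM2 interval ends at -0.0097 before adjustment over all genes, the other 7 include 0, and the GADD45A interval is the widest.

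For several targets the fitted difference between the array sets was larger than that between the groups, and 0 of the 8 passed the test for the sets. GADD45A read 6.67 to 7.13 on the low spike-in arrays, against 6.35 to 6.48 on the high spike-in arrays, without overlap. In a fit with group and array set the difference, low minus high, was 0.52 (SE 0.13, limma adjusted p = 0.0665). GDF15 ran the other way, at 5.18 to 5.30 on the low against 5.46 to 5.54 on the high spike-in arrays, also without overlap (-0.28, SE 0.06, limma adjusted p = 0.0578). The sets did not overlap for 5 of the 8 targets, beside 40.3% of all genes and 64.0% of those above background. The other 3 of these 5 were CDKN1A (-0.21, SE 0.09, limma adjusted p = 0.196), TP53I3 (0.11, SE 0.05, limma adjusted p = 0.227) and FAS (-0.05, SE 0.03, limma adjusted p = 0.386). For MDM2, whose sets overlapped, the set difference was -0.010 (SE 0.07). In this comparison 8.06% of all genes and 27.1% of the 4150 genes above background passed.

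**Figure D3:**
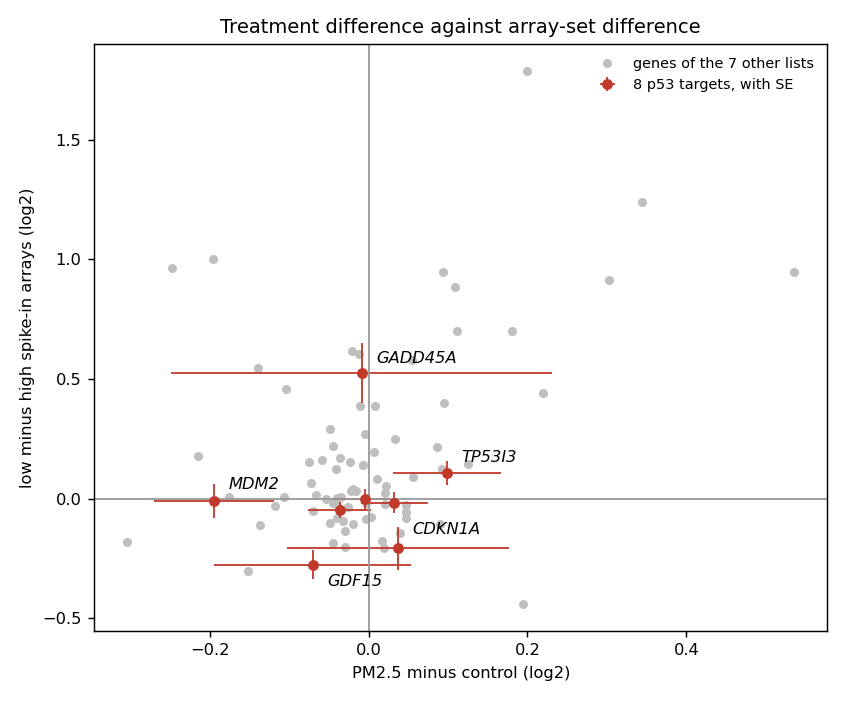
Difference between PM2.5 and control arrays (horizontal) against the difference between low and high spike-in arrays (vertical), both log2; red points with SE bars are the 8 p53 targets and grey points the genes of the 7 other pathway lists. GADD45A and GDF15 lie far from 0 on the vertical axis and near 0 on the horizontal one, and MDM2 the reverse.

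The array profiles most like those of the targets above background were sought among 4149 genes by the root mean square difference over the 6 arrays, each profile centred on its own mean. For GADD45A they were SAMM50, a subunit of the mitochondrial outer membrane assembly machinery (0.0150 log2 units), TRMT2B, a mitochondrial RNA methyltransferase (0.0222), and KIAA0319L, a receptor used by adeno-associated viruses (0.0274). The median over all compared genes was 0.262. SAMM50 read 7.98, 8.41 and 8.25 on the PM2.5 arrays, against 8.03, 7.90 and 8.72 on the control arrays, the same order of arrays as GADD45A. For CDKN1A the nearest were TOMM5, a small subunit of the mitochondrial import pore (0.0227), CLPP, a mitochondrial protease (0.0389), and OTUD6A, a deubiquitinase (0.0396), where the median was 0.291. TOMM5 read 9.52, 9.40 and 9.38 on the PM2.5 arrays, against 9.43, 9.56 and 9.27 on the control arrays. With 6 arrays and 4149 candidates close profiles are easily found, and these are a description.

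Upstream of the targets, 13 of 15 listed regulators of p53 were measured and 0 passed in limma, with 0 at an unadjusted p under 0.05 (median difference 0.02, 0 with separate groups). MDM4, the partner of MDM2 that blocks p53, read 4.24, 4.29 and 4.31 on the PM2.5 arrays, against 4.29, 4.31 and 4.31 on the control arrays, within background. Above background lay 5 of the 13: the kinase HIPK2, the deubiquitinase USP7, the ligase COP1 and the acetyltransferases KAT5 and CREBBP. Their differences ran from -0.10 for USP7 to 0.34 for CREBBP. With the array set as a block USP7 was at -0.26 and CREBBP at -0.07. The list's median was then -0.01, beside -0.0049 over all genes and -0.048 over those above background. CREBBP read higher on the low than on the high spike-in arrays, by 1.24 (limma adjusted p = 0.0316).

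Of the other listed p53 targets, 38 were measured and 0 passed in limma. An unadjusted limma p under 0.05 was found for 2 of the 38, RPRM and TP53INP1, beside 2.11% of all genes. Among 14 genes of arrest and feedback 13 were lower and 1 higher after PM2.5 (median -0.04), where 12782 of all 22465 genes were lower. Groups were separate for 2 of the 14, both lower, against the 3.37% of all genes. RPRM, reprimo, a mediator of arrest in G2, read 6.01, 5.96 and 5.92 on the PM2.5 arrays, against 6.27, 6.46 and 6.08 on the control arrays. It was above background on all 6 arrays, with a difference of -0.30 (SE 0.12, limma adjusted p = 1), -0.35 in the high and -0.14 in the low spike-in set. TP53INP1, a stress-induced partner of p53, differed by -0.11 (SE 0.04, limma adjusted p = 1), within background on every array. CCNG1, cyclin G1, and the kinase PLK2 were above background and differed by -0.25 and -0.20 with overlapping groups. With the array set as a block they were at -0.57 (SE 0.23, limma adjusted p = 0.867) and -0.53 (SE 0.11, limma adjusted p = 0.862). For CCNG1 the difference was -0.31 in the high and -0.83 in the low spike-in set, and for PLK2 it was -0.35 and -0.71. Of the 14 genes 12 were lower with this block (median -0.07), where the median was -0.0049 over all genes and -0.048 over those above background.

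Among 11 genes of cell death the median was -0.02 (-0.05 with the block), with 5 higher and 6 lower. Groups were separate for 1 of the 11, beside 5.31% of all genes. This was APAF1, a scaffold of the apoptosome, which was within background (-0.07, SE 0.03, limma adjusted p = 1). BAX, a pore-forming member of the BCL2 family, read 7.13, 6.88 and 6.87 on the PM2.5 arrays, against 7.18, 7.28 and 6.88 on the control arrays, with overlap. Among 6 repair genes the median was 0.07, with 4 higher and 2 lower and no separate groups. With the array set as a block 2 were higher and 4 lower (median -0.02). PCNA, the sliding clamp of DNA polymerases, differed by 0.30 (SE 0.38), or -0.0019 with the block. DDB2, which recognises ultraviolet damage, differed by 0.12 (SE 0.15). Among 7 metabolic genes the median was -0.02, with 3 higher and 4 lower. SESN2, the only one of these above background, read 7.38, 7.15 and 7.15 on the PM2.5 arrays, against 7.28, 7.23 and 7.13 on the control arrays.

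**Figure D4:**
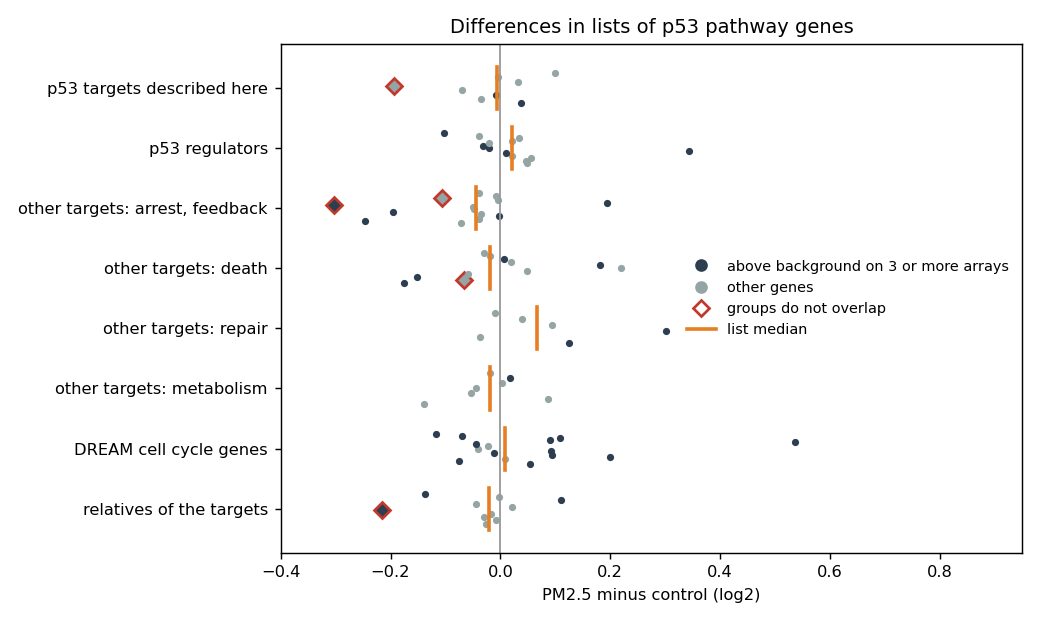
Difference between PM2.5 and control arrays (log2) of each measured gene, by list; dark points are genes above background on at least 3 arrays, diamonds mark genes whose groups did not overlap, and orange bars are list medians. The medians lie between -0.04 and 0.07, and the 5 diamonds, MDM2, RPRM, TP53INP1, APAF1 and GADD45B, all lie below 0. These are 1 of the 8 targets and 4 of the 76 other genes. Over all genes 5.31% had separate groups, 3.37% lower and 1.95% higher. TP53INP1 and APAF1 were within background on every array.

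Activated p53 lowers many cell cycle genes through p21 and the DREAM repressor complex. All 15 listed genes of this arm were measured, 12 of them above background, and 0 passed in limma, with 0 at an unadjusted p under 0.05. Of the 15, 8 were higher and 7 lower after PM2.5 (median 0.0077), and no groups were separate. PLK1, counted as lower, read the same 13.74 on every array except control replicate 1, at 13.95. With the array set as a block 4 were higher and 11 lower (median -0.11), and 0 passed in limma. The median with this block was -0.0049 over all genes and -0.048 over those above background. FOXM1, a transcription factor of G2 and mitosis, had the highest difference, 0.54 (SE 0.44), or 0.22 with the block, at 8.81, 9.66 and 9.42 on the PM2.5 arrays, against 8.71, 8.04 and 9.54 on the control arrays. CCNB1, cyclin B1, differed by 0.09 (SE 0.39), -0.08 in the high and -0.36 in the low spike-in set. Between the array sets 4 of the 15 passed in limma, beside 8.06% of all genes and 27.1% of those above background. BUB1, among those that passed, was not above background.

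Of 11 listed relatives and partners of the targets, 10 were measured and 0 passed in limma, with 0 at an unadjusted p under 0.05. Of the 10, 2 were higher and 8 lower (median -0.02). Groups were separate for 1 of the 10, beside 5.31% of all genes and 3.28% of those above background. This was GADD45B, a stress sensor related to GADD45A, itself above background. It read 7.46, 7.51 and 7.51 on the PM2.5 arrays, against 7.67, 7.55 and 7.92 on the control arrays. Every PM2.5 array lay below every control array, with a difference of -0.21 (SE 0.15, limma unadjusted p = 0.207, adjusted p = 1). The difference was -0.15 in the high and -0.40 in the low spike-in set. RRM2, the small subunit of ribonucleotide reductase used in S phase, read 6.34, 6.99 and 6.94 on the PM2.5 arrays, against 6.36, 6.41 and 7.17 on the control arrays, with overlap.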

How the data were processed

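Total RNA of 3 PM2.5 and 3 control samples was hybridised to Affymetrix arrays. The authors deposited log2 values, which the submitters' processing notes credit to RMA; its version and the genome build are not given in the sources used here. The table had 70523 rows, and no pair of arrays was identical. Clusters with exactly 1 symbol in the platform annotation were used, the brightest per gene. R 4.3.3 with limma 3.58.1 gave two-sided tests of the difference (eBayes, trend on intensity, no block, Benjamini-Hochberg adjustment over 22465 genes), and the script was tested on simulated data. Precision is limited by the number of arrays. The members, lists and array sets were chosen with earlier results of these data known. By rule the text names the 9 members, MDM4, list genes with separate groups above background and the nearest profiles; other genes were named after their values were seen. Alternatives were a replicate or array-set block, centring, quantile normalization, a background filter, cluster means, no trend, array weights, each array left out and, added later, the spike-in signal as a covariate. One listed gene is not reported here.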

Additional observations from a re-analysis of the deposited data

How the results depend on the processing

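In limma 0 of the 8 targets, 0 of the 76 measured genes of the 7 other lists and 0 of all genes passed under each of the 15 alternatives, leave-one-out fits included; of genes above background only, 2 targets were left to test. Of 114 values of single targets 99 kept their sign and 15 turned, none of them called. The replicate block, cluster means, no trend and the background filter leave each target's difference unchanged, so there no sign could turn. The cause of the turns was not tested. MDM2 stayed negative in all 14 alternatives that tested it, at -0.28 with array weights and -0.23 to -0.14 over leave-one-out fits. Its limma adjusted p was 0.101 at the lowest and 1 at the highest. Because its groups were separate, leaving out or weighting arrays could not turn its sign. GADD45A (-0.0086 as first analysed) was 0.012 with arrays centred, 0.0060 after quantile normalization, 0.19 with array weights, -0.18 with the array set as a block, -0.31 with the spike-in covariate (limma adjusted p = 0.502) and -0.16 to 0.23 over leave-one-out fits. SESN1 was 0.016 with arrays centred, 0.012 after quantile normalization and -0.025 to 0.026 over leave-one-out fits. GDF15 was 0.022 with the array set as a block, 0.086 with the spike-in covariate, -0.23 with array weights (limma adjusted p = 0.122) and -0.18 to 0.0021 over leave-one-out fits. CDKN1A (0.04) was 0.11 with the array set as a block, 0.15 with the spike-in covariate, 0.00012 with array weights and -0.042 to 0.12 over leave-one-out fits. TP53I3 (0.10) stayed positive, from 0.04 with the spike-in covariate to 0.17 with array weights (limma adjusted p = 0.102). Control replicate 1 had an array weight of 6.03, against 0.539 and 0.226 for control replicates 2 and 3. The control side of the weighted differences thus rested largely on that array. With the replicate block the MDM2 difference was -0.19 (limma adjusted p = 1) and 0 genes passed. Across genes above background, Pearson's r between deviations of same-numbered arrays was 0.779, -0.654 and 0.773 for numbers 1 to 3. Between arrays of the same spike-in set but different number, PM2.5 replicate 1 and control replicate 2 had 0.834. PM2.5 replicate 2 and control replicate 3, also of the same set, had 0.790. The numbers were not taken as pairs. The number of arrays and the nearness of FAS, SESN1 and RRM2B to background limit what could be seen.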

Other observations

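The p53 element as searched above was also looked up for the other pathway genes. It was present in a promoter window of TP73, a relative of p53, of AEN, a nuclease of apoptosis, of DDB2, of GLS2 and FDXR, a mitochondrial glutaminase and ferredoxin reductase, and of CDC25C, a phosphatase that opens mitosis. That is 1 of 14 regulators, 0 of 12 arrest and feedback genes, 1 of 9 death genes, 1 of 6 repair genes, 2 of 9 metabolic genes, 1 of 11 DREAM genes and 0 of 9 relatives with a window, beside 3.62% of all genes. AEN read 6.72, 6.46 and 6.64 on the PM2.5 arrays, against 6.89, 6.55 and 6.90 on the control arrays, and DDB2 read 7.67, 7.81 and 7.85 on the PM2.5 arrays, against 7.71, 7.50 and 7.74 on the control arrays. Groups overlapped for both. GLS2 and FDXR were not analysed here on the arrays.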
